A study of Rattus norvegicus with 4 samples.

Results

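The genes described here are 10 regulators of RNA splicing, stability and translation in neural progenitors and neurons: Elavl1, Elavl2, Elavl3, Elavl4, Ptbp1, Ptbp2, Celf1, Celf2, Celf4 and Msi1. They were chosen by symbol from the 16881 gene symbols of the count tables, and each had 1 entry. The study sequenced RNA of rat neural stem/progenitor cells of wild-type genotype in 4 groups of 1 library each, so no group had replicates. The cells grew on PUCL@CNT1, an electroconductive nanohybrid platform, or on bare PUCL. In the differentiation groups, cells first held in maintenance medium spent a further 1.5 d in the B-27 Plus medium for neuronal culture. The maintenance groups stopped after 24 h in their own medium, knockout DMEM/F12 plus StemPro neural supplement. The effects of medium and of time therefore cannot be told apart. Strain, age, number of animals and culture of origin are not given in the sources used here. Libraries were made with a Lexogen Quant-Seq kit, and raw counts of each gene were deposited. The PUCL@CNT1 and PUCL libraries held 6855984 and 6580894 counts in differentiation medium, and 6035848 and 6502918 in maintenance medium.

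RNA-binding proteins of these families decide which exons enter an mRNA and how long the mRNA lasts. Ptbp1 is the polypyrimidine tract-binding protein of progenitors and most other cells. It represses neuronal exons and also the productive splicing of its relative Ptbp2, and when neurons form Ptbp1 normally gives way to Ptbp2. Elavl1 (HuR) is made in nearly every cell, whereas Elavl2 (HuB), Elavl3 (HuC) and Elavl4 (HuD) are hallmarks of neurons, where they bind AU-rich and U-rich stretches of mRNAs. Celf1 and Celf2 bind GU-rich RNA in many tissues and Celf4 mainly in neurons, and Msi1 (Musashi) is a translational regulator long used as a marker of neural stem cells.

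The upstream promoter sequence of the paralogs on which most of the results turn is shown for reference: Elavl1 and Ptbp1, the broadly made members, beside Elavl4 and Ptbp2, their neuronal relatives. RefSeq promoter windows of the GRCr8 build were present for 7 of the 10 genes. The 250 bases before the annotated start are printed 5′ to 3′ on the strand of the gene, which is the minus strand for all 4. They lie at chr12:7482626-7482875 (Elavl1), chr5:130367664-130367913 (Elavl4, at a start inside the span of the gene), chr7:10502958-10503207 (Ptbp1) and chr2:210558278-210558527 (Ptbp2). The counts were made on rn6, so these positions serve the sequences only. Capitals mark, on either strand, the CCAAT box (spelt as in its name), the GC box with the letters GGGCGG and the E-box with the letters CANNTG. No matches overlapped.
Elavl1: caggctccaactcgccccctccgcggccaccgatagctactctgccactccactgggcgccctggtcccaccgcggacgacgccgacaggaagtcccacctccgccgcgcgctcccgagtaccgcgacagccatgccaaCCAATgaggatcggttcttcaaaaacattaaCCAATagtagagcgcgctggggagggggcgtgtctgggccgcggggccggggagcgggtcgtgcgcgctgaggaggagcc
Elavl4: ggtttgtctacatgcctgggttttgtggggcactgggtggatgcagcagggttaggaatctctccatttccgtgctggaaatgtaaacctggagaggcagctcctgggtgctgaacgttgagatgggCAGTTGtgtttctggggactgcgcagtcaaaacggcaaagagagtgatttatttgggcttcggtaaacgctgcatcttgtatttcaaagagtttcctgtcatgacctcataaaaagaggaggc
Ptbp1: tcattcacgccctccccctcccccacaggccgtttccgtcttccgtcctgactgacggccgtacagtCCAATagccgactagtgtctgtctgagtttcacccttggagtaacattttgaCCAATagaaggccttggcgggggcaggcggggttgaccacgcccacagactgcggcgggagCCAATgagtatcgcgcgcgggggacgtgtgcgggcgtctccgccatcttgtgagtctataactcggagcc
Ptbp2: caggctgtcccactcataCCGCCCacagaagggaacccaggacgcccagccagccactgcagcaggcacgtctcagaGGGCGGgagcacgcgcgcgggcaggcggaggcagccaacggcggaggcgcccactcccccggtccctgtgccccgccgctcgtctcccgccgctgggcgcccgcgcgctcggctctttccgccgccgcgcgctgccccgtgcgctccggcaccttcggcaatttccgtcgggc
The Elavl1 window held 2 CCAAT boxes and the Ptbp1 window 3, the Ptbp2 window 2 GC boxes and the Elavl4 window 1 E-box. CCAAT boxes were not limited to the broadly made genes: the window of neuronal Elavl2, not shown, held 2, and 1 GC box. Of 33465 RefSeq windows of the same length, 34.0% held a CCAAT box, 30.5% a GC box and 65.5% an E-box. The TATA motif with the letters TATAAA, searched the same way, was in 12.9% of all windows and in 0 of the 7 members' windows. The number of CpG dinucleotides was 28 in the Elavl1 window, 6 in that of Elavl4, 21 in that of Ptbp1 and 34 in that of Ptbp2, against a median of 5 over all windows. These matches describe the letters and do not show that any factor binds.

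The depth of each gene set how far it could be compared. Elavl1, Elavl4 and Ptbp1 had means of 500 or more counts per library and Elavl2 had between 100 and 500. Celf1, Celf2, Celf4, Elavl3 and Ptbp2 had means under 100 counts. Of all 4312 tested genes in that lowest range, 51.7% had 0 counts in at least 1 library, against 0.213% of the 3748 genes between 100 and 500 and 0% of the 2456 above. The counting intervals given here leave out the spread between libraries, so they are too narrow as errors of a condition. The spread that edgeR, a count-based test, assigned at each gene's level was a coefficient of variation of 18.7% for Elavl1, 23.3% for Ptbp1, 22.7% for Elavl4 and 51.7% for Elavl2. It was 81.8% for Ptbp2 and 146% for Elavl3, the widest of the 9 genes tested. Levels are given as counts and as CPM, counts over library size after TMM (trimmed mean of M values) scaling, and are compared only within a gene.

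**Figure D1:**
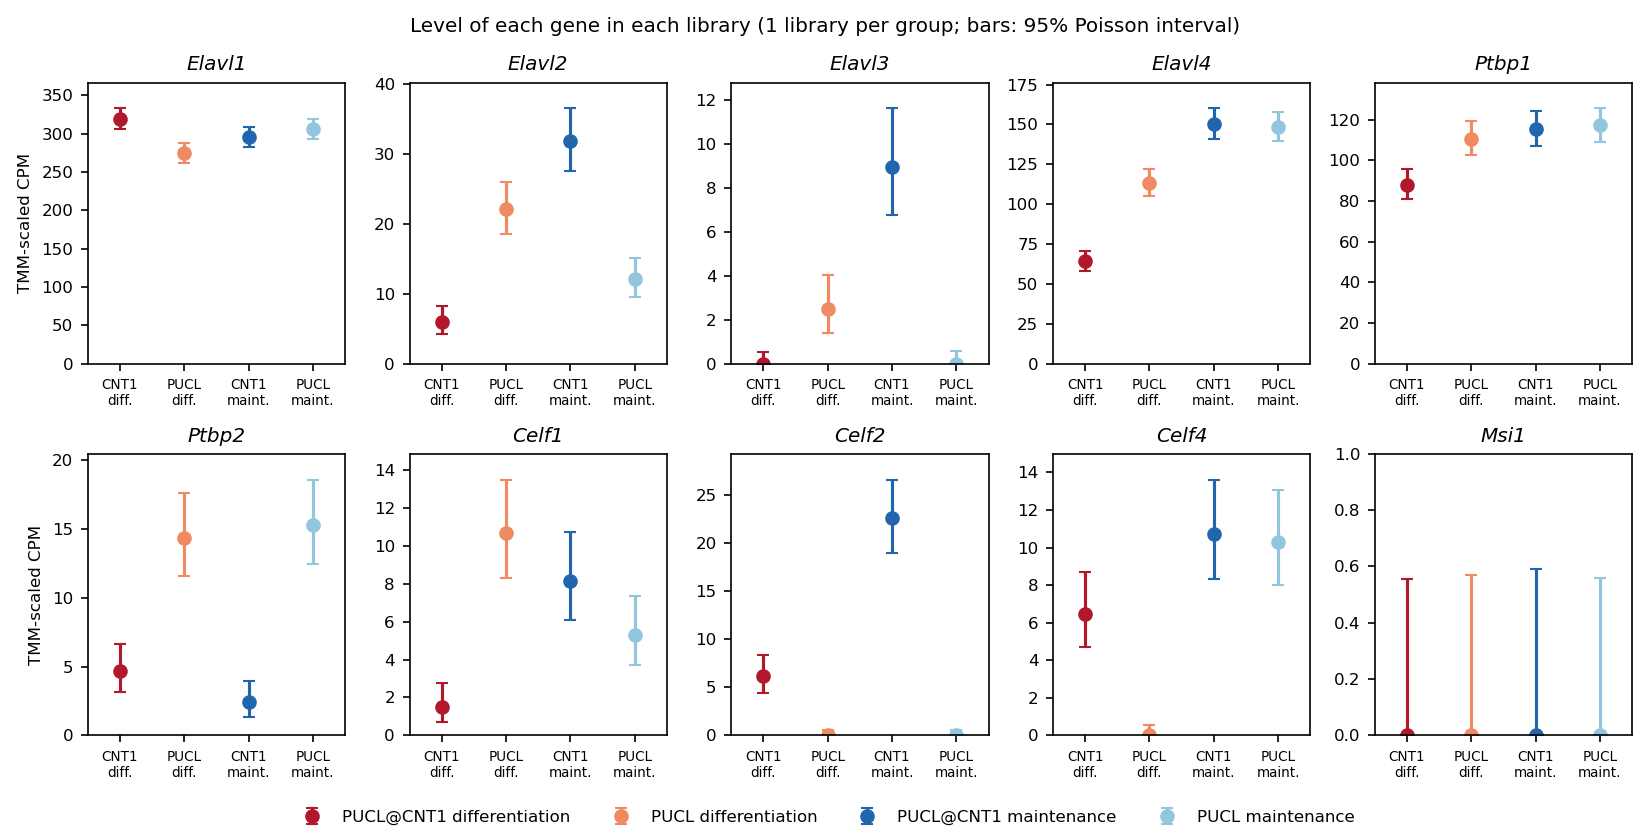
TMM-scaled CPM (y axes, linear, each from 0) of the 10 genes in the 4 libraries (x axes, 1 point per library, CNT1 standing for PUCL@CNT1, with the exact 95% Poisson interval of the count). Elavl1 keeps nearly the same level in all 4 libraries, Elavl4 is lowest on PUCL@CNT1 in differentiation medium, and Msi1 is at 0 throughout.

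Markers fixed for the labelled cell type were present. Of 8 neural stem/progenitor markers (Nes, Sox2, Vim, Pax6, Fabp7, Hes5, Sox9, Prom1), 7 had counts in every library and Hes5 had 2 counts in 1 library. Their summed level was 10633 CPM on PUCL@CNT1 and 8096 CPM on PUCL in differentiation medium, and 6936 and 6551 CPM in maintenance medium. Most of that sum was Vim, with 50754 and 31121 counts in differentiation medium and 29953 and 28449 in maintenance medium. Sox2 (3879 and 6301 counts in differentiation medium), Pax6 (19 and 246) and Prom1 (7 and 73) were lower on PUCL@CNT1 than on PUCL there. Summed astrocyte markers stood at 459 and 920 CPM in differentiation medium and at 466 and 468 CPM in maintenance medium (PUCL@CNT1, then PUCL). The high value on PUCL was S100b, with 3939 counts there against 534 to 761 in the other libraries, while Gja1 had its lowest count, 1963, in the same library and Aqp4, Gfap and Aldh1l1 were at 0 in at least 2 libraries each. Summed markers of the oligodendrocyte lineage stood at 1106 and 1160 CPM in differentiation medium and at 612 and 776 CPM in maintenance medium. Most of that sum was Olig1, with 4169 and 4144 counts against 1670 and 1874, and Olig2, with 2930 and 3063 against 1975 and 2978. Pdgfra had 69 and 138 against 52 and 108. The others were mixed: Sox10 had 82 and 135 against 97 and 55, and Cspg4 99 and 22 against 26 and 105. Microglial markers were at 0 in every library for 5 of 5 genes. Kdr was the 1 endothelial marker of 4 with counts, and 3 of 5 mural and fibroblast markers were at 0.

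Msi1, the stem cell marker of the set, was the member without a read. It had 0 counts in all 4 libraries. The exact 95% Poisson interval of that count ended at 0.555 CPM on PUCL@CNT1 and 0.571 CPM on PUCL in differentiation medium. In maintenance medium it ended at 0.591 and 0.559 CPM, counting error only. Whether the annotation behind the counts covers the Msi1 transcripts of these cells could not be checked here, so the limit holds for reads counted under that symbol. It did not enter the tests, which needed a count of 10 in some library. The other 9 members entered, but 3 of these were themselves at 0 in some library, and 6 had 10 or more counts in every library. In the same libraries Nes had 3714 and 3461 counts in differentiation medium and 2363 and 2420 in maintenance medium, on PUCL@CNT1 and PUCL in that order.

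The first question of the design is what changed between media. No member passed edgeR's quasi-likelihood test over the 4 libraries with medium and platform as additive terms (0 of 9, Benjamini-Hochberg adjusted p threshold 0.05). Over all 10516 genes 2.81% passed, 1.8% higher and 1.02% lower in differentiation medium. At an unadjusted p under 0.05 there was 1 member of 9 in edgeR, Elavl4, against 12.1% of all genes, and 2 in DESeq2, against 10.2%; DESeq2 also called 0 after adjustment. That edgeR fit has 1 residual degree of freedom, takes most of its spread from other genes (87.2 prior degrees of freedom) and treats the platforms as repeats of the medium difference. Differences that ran opposite ways on the platforms therefore count as spread in it.

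Elavl1, the ubiquitous Hu protein gene, had the steadiest level of the 9 members with counts. It had 2124 counts (320 CPM) on PUCL@CNT1 and 1773 (274 CPM) on PUCL in differentiation medium, against 1846 (296 CPM) and 2017 (306 CPM) in maintenance medium. Its highest level was 1.17 times its lowest. The fitted difference between media was -0.02 on the log2 scale (95% interval -0.46 to 0.42, edgeR adjusted p 1.00), so a change of either sign within that interval is not excluded.

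Elavl4, the neuronal Hu gene also known as HuD, was lower in differentiation medium on both platforms. It had 428 counts (64.4 CPM) on PUCL@CNT1 and 733 (113 CPM) on PUCL in differentiation medium, against 939 (150 CPM) and 979 (148 CPM) in maintenance medium. Both differentiation libraries lay below both maintenance libraries, and the maintenance libraries lay close together. The log2 ratio was -1.22 on PUCL@CNT1 (counting interval -1.39 to -1.06) and -0.39 on PUCL (-0.53 to -0.25). The fitted difference was -0.80 (SE 0.306, unadjusted p 0.0101), and with edgeR's adjusted p of 0.172 it did not pass. It was below 0 in each of the 11 alternative fits. Because both differentiation libraries lay below both maintenance libraries, that sign was largely set in advance. With all 4 libraries kept, the adjusted p ran from 0.123 (edgeR with total counts) to 0.409 (DESeq2).

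The summed level of neuronal markers was also lower in differentiation medium. Of 7 fixed neuronal markers (Dcx, Tubb3, Map2, Stmn2, Snap25, Syt1, Gap43), all had counts and 6 did so in every library. Their summed level was 158 CPM on PUCL@CNT1 and 168 CPM on PUCL in differentiation medium, against 253 and 345 CPM in maintenance medium. Most of that sum was Map2 and Gap43. Map2, a dendritic microtubule protein gene, had 238 and 407 counts in differentiation medium and 614 and 552 in maintenance medium, and Gap43, a growth cone gene whose mRNA HuD binds, had 679 and 496 against 815 and 1375 (PUCL@CNT1, then PUCL). Neither passed the medium test in edgeR (adjusted p 0.215 for Map2 and 0.0987 for Gap43). Dcx was higher in differentiation medium on both platforms, with 61 and 79 counts against 39 and 48 in maintenance medium, while Tubb3 had 62 and 25 against 20 and 28. Snap25 had 0 and 50 against 28 and 191, Stmn2 1 and 1 against 22 and 48, and Syt1 7 and 29 against 42 and 31. The part of these markers in the Elavl4 difference was not tested. Bulk libraries do not show which cells gave these reads, so fewer neurons cannot be told apart from less RNA per cell.

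Elavl2 and Elavl3, the other neuronal Hu genes, differed between media in opposite directions on the platforms. Elavl2 had 40 counts (6.02 CPM) on PUCL@CNT1 and 143 (22.1 CPM) on PUCL in differentiation medium, against 199 (31.9 CPM) and 80 (12.1 CPM) in maintenance medium. Its log2 ratio between media was -2.39 on PUCL@CNT1 (counting interval -2.93 to -1.91) and 0.86 on PUCL (0.46 to 1.28), and the fitted difference of -0.75 (SE 0.893) had an adjusted p of 0.919 in edgeR. Elavl3 had 0 and 16 counts in differentiation medium and 56 and 0 in maintenance medium, on PUCL@CNT1 and PUCL in that order. Against a floor of 3 counts per library it was 19.9-fold lower in differentiation medium on PUCL@CNT1 and 5.44-fold higher on PUCL. These folds leave out the error of the nonzero count. The counting interval of the log2 ratio ended at -3.97 on PUCL@CNT1 and began at 1.98 on PUCL. The 2 libraries with Elavl3 counts thus differ in both medium and platform.

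Ptbp1, the progenitor repressor of neuronal exons, varied little. It had 586 counts (88.2 CPM) on PUCL@CNT1 and 716 (111 CPM) on PUCL in differentiation medium, against 721 (115 CPM) and 773 (117 CPM) in maintenance medium. Both differentiation libraries were lower, by a log2 ratio of -0.39 on PUCL@CNT1 and -0.08 on PUCL, and the highest level was 1.33 times the lowest. The fitted difference was -0.24 (95% interval -0.85 to 0.38, edgeR adjusted p 0.934). RefSeq lists 6 pseudogenes named after Ptbp1 and 1 after Elavl1, so reads of these genes may have been split with near-identical copies.

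Ptbp2, the neuronal paralog that takes over in postmitotic cells, was lower on PUCL@CNT1 in both media. It had 31 counts (4.66 CPM) on PUCL@CNT1 and 93 (14.4 CPM) on PUCL in differentiation medium, against 15 (2.40 CPM) and 101 (15.3 CPM) in maintenance medium. The log2 ratio between media was 0.94 on PUCL@CNT1 (counting interval 0.02 to 1.95) and -0.09 on PUCL (-0.51 to 0.33), and edgeR's adjusted p was 0.981.

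The 3 Celf genes, which bind GU-rich targets, had at most 141 counts in any library. Celf1 had 10 counts (1.50 CPM) on PUCL@CNT1 and 69 (10.7 CPM) on PUCL in differentiation medium, against 51 (8.16 CPM) and 35 (5.31 CPM) in maintenance medium. Like Elavl2, it was lower after the switch on PUCL@CNT1 (log2 ratio -2.38) and higher on PUCL (1.00). Celf2 had 41 and 141 counts on PUCL@CNT1 in differentiation and maintenance medium, a log2 ratio of -1.86, and 0 counts in both PUCL libraries. Celf4, the neuronal member, had 43 counts on PUCL@CNT1 and 0 on PUCL in differentiation medium, against 67 and 68 in maintenance medium. Against the floor of 3 counts it was 22.2-fold lower on PUCL, where the counting interval of the log2 ratio ended at -4.14. The adjusted p in edgeR was 0.978 for Celf1, 0.933 for Celf2 and 0.716 for Celf4.

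Taking single pairs of libraries, a difference was counted when the TMM-scaled ratio reached 2-fold and the 95% counting interval stayed clear of 1.5-fold. On PUCL@CNT1, 5 members were lower in differentiation medium by this rule (Elavl2, Elavl3, Elavl4, Celf1 and Celf2), where 14.5% of all tested genes were lower, and 0 were higher, where 16.5% of all genes were (31% in either direction). In the range of 500 or more counts, where Elavl4 lies, 8.27% of genes were past the rule in either direction in this pair, against 48.7% in the range under 100 counts, where Elavl3, Celf1 and Celf2 lie, and 25.5% between. On PUCL, Celf4 was lower and Elavl3 higher, where 15.3% of all genes were lower and 16.1% higher (31.3% in all). Both lie in the range under 100 counts, in which 50.6% of genes were past the rule in this pair, against 25.2% between 100 and 500 counts and 6.96% above. No member was past the rule in the same direction on both platforms, against 3.53% of genes lower and 4.35% higher on both. These pairs compare 2 libraries each and carry no p-value.

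**Figure D2:**
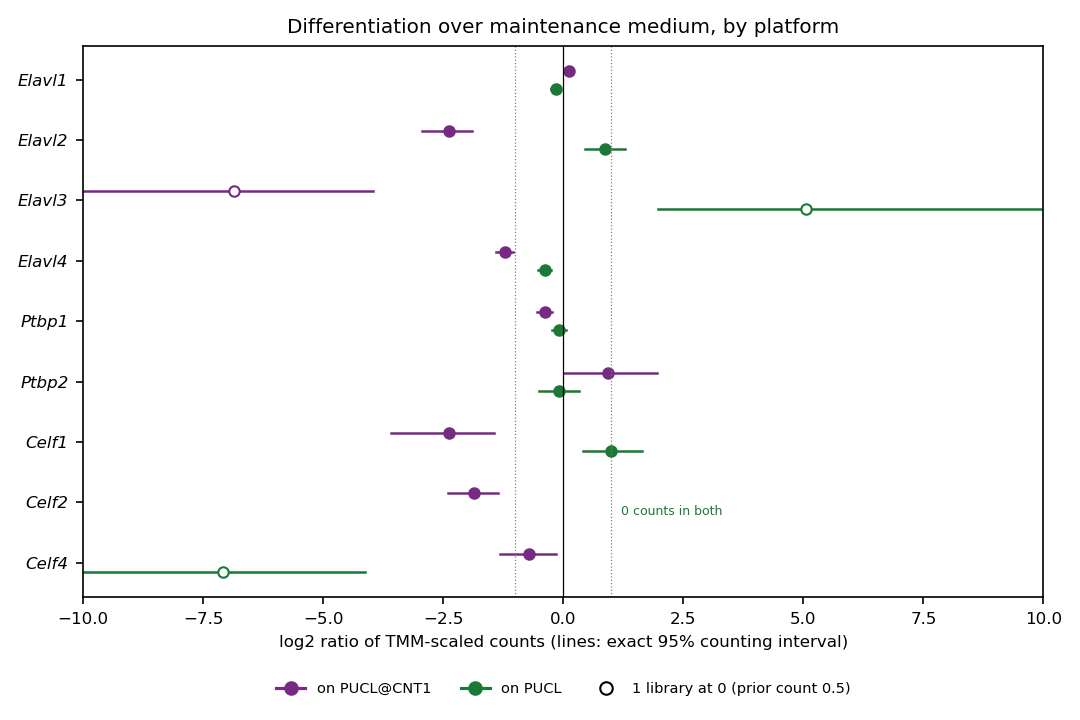
Log2 ratio of TMM-scaled counts, differentiation over maintenance medium (x axis), for the 9 genes with counts (rows), on PUCL@CNT1 (upper point of each row) and on PUCL (lower point), with the exact 95% counting interval; dotted lines mark 2-fold and intervals that reach the edge are open-ended. Elavl4 lies below 0 on both platforms, while Elavl2, Elavl3 and Celf1 lie on opposite sides of 0.

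**Figure D3:**
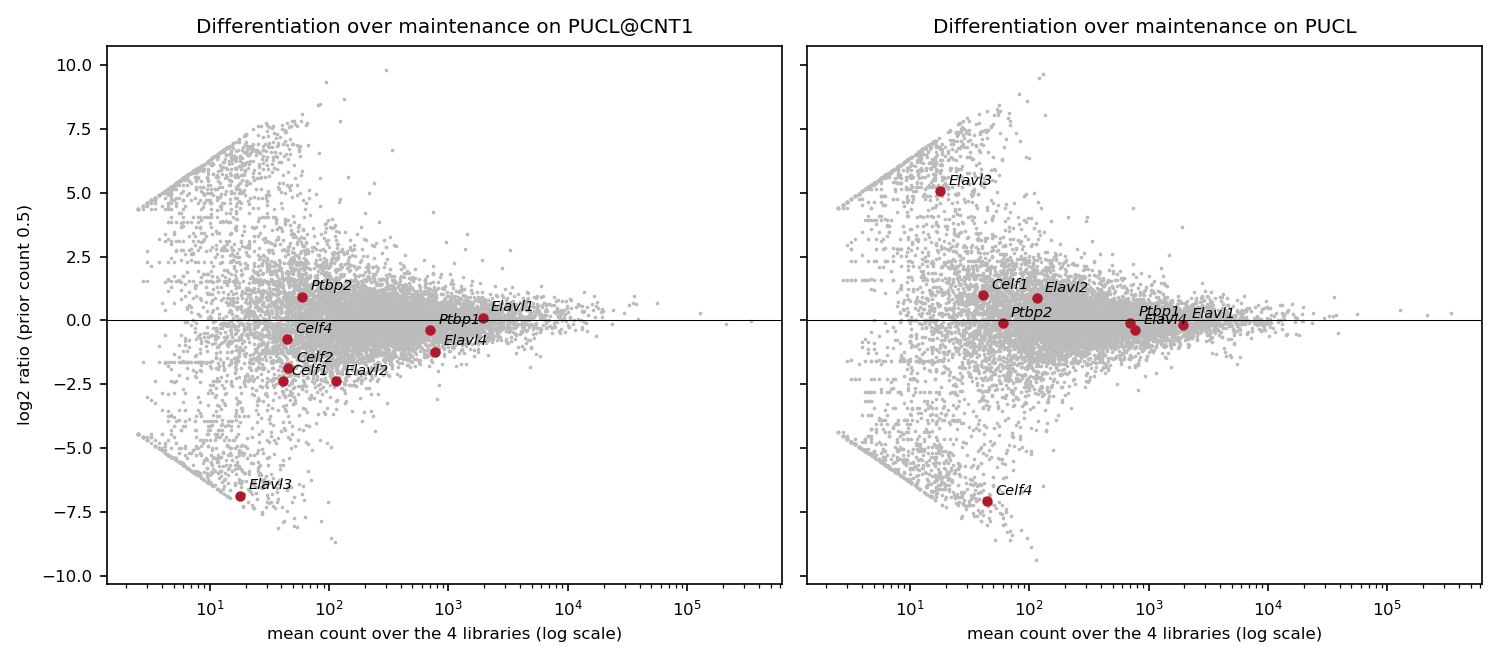
Log2 ratio between media (y axis, prior count 0.5) against the mean count over the 4 libraries (x axis, log scale) for all tested genes with a count in that pair (grey points), on PUCL@CNT1 (left) and PUCL (right), with the regulators in red. Elavl1, Ptbp1 and Elavl4 lie where most genes are near 0, and the others where the cloud of all genes is wide.

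The second question is how the platforms differed within a medium; these pairs use the same 4 libraries as the medium pairs. In edgeR 0 of 9 members passed the platform test, against 0.456% of all genes (0.209% higher and 0.247% lower on PUCL@CNT1), and 1 member (Celf2) had an unadjusted p under 0.05 in edgeR, as did 1 member in DESeq2, where 6.95% and 6.02% of all genes did. By the size rule 6 members differed between platforms in differentiation medium, 2 higher and 4 lower on PUCL@CNT1, where 15.2% and 15.6% of all genes did (30.8% in all). The share of all genes past the rule there was 51.9% under 100 counts, 23.2% between 100 and 500 and 5.33% above. In maintenance medium 3 members were higher and 1 lower on PUCL@CNT1, where 12.2% and 13.9% of all genes were (26.1% in all). By range of counts it was 46.7%, 18.1% and 2.04% of genes. All members past the rule in these pairs lie in the lower ranges, Elavl2 in the middle one and the rest in the lowest.

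Celf2 and Ptbp2 differed between platforms in the same direction in both media. Celf2 had 41 counts (6.17 CPM) on PUCL@CNT1 and 0 on PUCL in differentiation medium, and 141 (22.6 CPM) and 0 in maintenance medium. Counts of Celf2 thus came from the 2 PUCL@CNT1 libraries alone. Against a floor of 3 counts per library, the PUCL@CNT1 level was 13.3-fold higher in differentiation medium and 49.6-fold higher in maintenance medium. The counting intervals of these log2 ratios began at 3.37 and 5.32 in that order. Its edgeR unadjusted p was 0.000902 and its adjusted p 0.112. With all 4 libraries kept, the adjusted p, where given, ran from 0.137 (edgeR with total counts) to 0.392 (limma-voom). Celf2 reached the filter of 10 counts only through the PUCL@CNT1 libraries. Filter and platform test thus share the same values, and these p-values are no separate support for a platform difference. Ptbp2 was lower on PUCL@CNT1, with log2 ratios of -1.61 in differentiation medium (counting interval -2.26 to -1.02) and -2.63 in maintenance medium (-3.56 to -1.88). Its fitted platform difference was -2.14 (SE 1.42, edgeR adjusted p 0.935). Over all genes, 2.52% were higher and 3.17% lower on PUCL@CNT1 by the size rule in both media. Celf2 and Ptbp2 both had means under 100 counts. In that range 51.9% of genes were past the rule in the differentiation pair and 46.7% in the maintenance pair, in either direction.

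The abundant members showed small platform differences in maintenance medium. Elavl4 had a log2 ratio of 0.02 between platforms there (counting interval -0.11 to 0.15), Elavl1 of -0.05 (-0.14 to 0.04) and Ptbp1 of -0.02 (-0.17 to 0.13). In differentiation medium the ratio was -0.82 for Elavl4 (-0.99 to -0.64), 0.22 for Elavl1 (0.13 to 0.31) and -0.33 for Ptbp1 (-0.49 to -0.17). The platform ratio of Elavl4 was thus lower in differentiation than in maintenance medium, with a log2 difference of -0.83 (-1.05 to -0.62, counting error only), short of 2-fold. None of these 3 genes passed the platform test in edgeR (adjusted p 1.00 each).

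The platform ratio differed between media past the size rule for 4 members, 3 lower and 1 higher in differentiation medium, where 14.1% and 15.4% of all genes did (29.5% in all). That share was 40.2% under 100 counts, 31.3% between 100 and 500 and 7.86% above. It was lower in differentiation medium for Elavl2 (-3.25 on the log2 scale, counting interval -3.88 to -2.63) and Celf1 (-3.38, -4.50 to -2.26). Elavl2 was past the rule in both platform pairs, lower on PUCL@CNT1 in differentiation medium (log2 ratio -1.86) and higher on it in maintenance medium (1.39). Elavl3 was lower and Celf4 higher on the same measure, each with libraries at 0, so that the size of the value depends on the 0.5 added to each count.

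**Figure D4:**
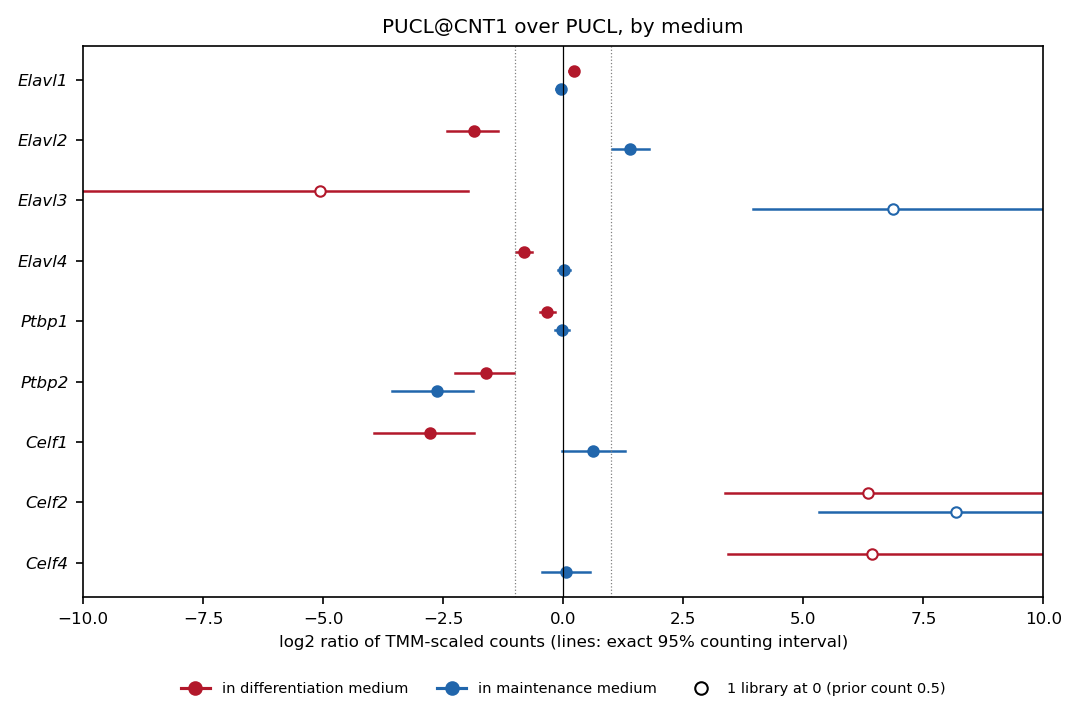
Log2 ratio of TMM-scaled counts, PUCL@CNT1 over PUCL (x axis), for the 9 genes with counts (rows), in differentiation medium (upper point of each row) and maintenance medium (lower point), with the exact 95% counting interval; dotted lines mark 2-fold. Ptbp2 lies below 0 and Celf2 above 0 in both media, and Elavl2 changes side.

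Ratios of paralogs within a library need no scaling between libraries. Of the Elavl counts in a library, Elavl2, Elavl3 and Elavl4 together made 18.1% on PUCL@CNT1 (exact 95% binomial interval 16.6% to 19.6%) and 33.5% on PUCL (31.7% to 35.3%) in differentiation medium, against 39.3% (37.5% to 41.0%) and 34.4% (32.7% to 36.1%) in maintenance medium. The library on PUCL@CNT1 in differentiation medium stood below the other 3. The log2 change of the neuronal-to-Elavl1 ratio between media was -1.55 on PUCL@CNT1 (-1.73 to -1.37) and -0.06 on PUCL (-0.22 to 0.10), counting error only. The PUCL value joins parts that ran opposite ways. In differentiation medium there, Elavl4 (733 against 979 counts) and Elavl1 (1773 against 2017) were lower. Elavl2 (143 against 80) and Elavl3 (16 against 0) were higher.

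Of the Ptbp1 and Ptbp2 counts, Ptbp2 made 5.02% on PUCL@CNT1 (3.44% to 7.06%) and 11.5% on PUCL (9.38% to 13.9%) in differentiation medium, against 2.04% (1.15% to 3.34%) and 11.6% (9.51% to 13.9%) in maintenance medium. Both PUCL@CNT1 libraries were below both PUCL libraries, whose intervals overlapped each other. The log2 change of the Ptbp2-to-Ptbp1 ratio between media was 1.32 on PUCL@CNT1 (0.43 to 2.21) and -0.01 on PUCL (-0.44 to 0.42). In both intervals only counting error is covered, and the PUCL@CNT1 change rests on 31 and 15 Ptbp2 counts. Celf4 made 81.1% of the Celf1 and Celf4 counts on PUCL@CNT1 (68.0% to 90.6%) and 0% on PUCL (up to 5.21%) in differentiation medium, against 56.8% and 66.0% in maintenance medium. The differentiation shares rest on 43 Celf4 and 10 Celf1 counts on PUCL@CNT1 and on 0 and 69 on PUCL, counting error only. On PUCL@CNT1 both genes had fewer counts than in maintenance medium (67 Celf4 and 51 Celf1).

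**Figure D5:**
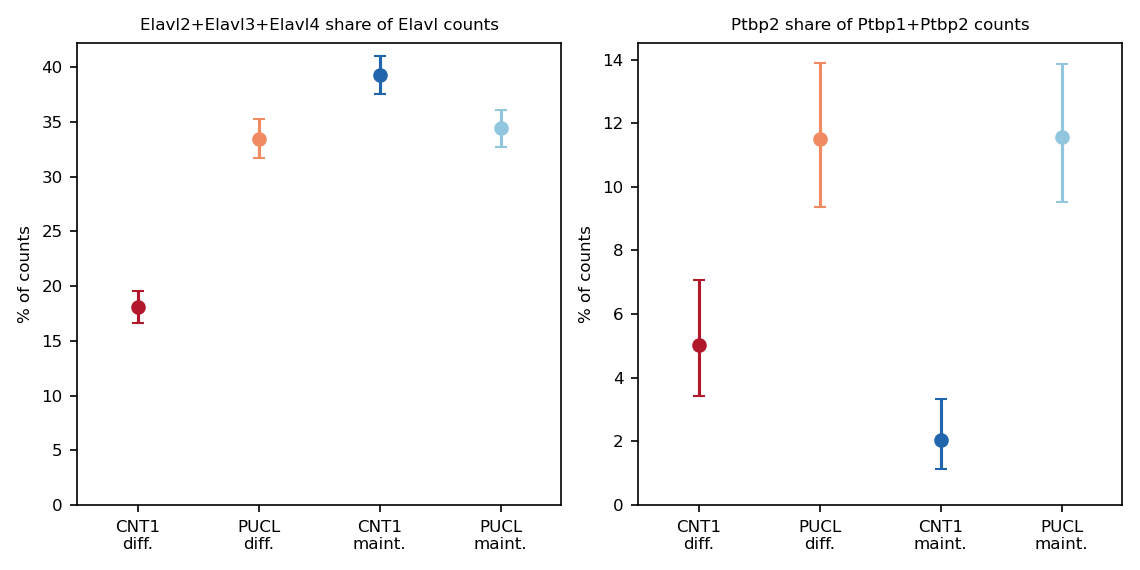
Share of Elavl2, Elavl3 and Elavl4 in all Elavl1 to Elavl4 counts (left) and of Ptbp2 in Ptbp1 plus Ptbp2 counts (right), in % (y axes from 0), in each of the 4 libraries (x axes, CNT1 standing for PUCL@CNT1), with the exact 95% binomial interval. The neuronal Elavl share is lowest on PUCL@CNT1 in differentiation medium (18.1%), and the Ptbp2 share is lower on PUCL@CNT1 in both media.

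Other RNA-binding regulators of neural tissue were examined as a list, to set the members beside genes of like function. Of 29 such genes, 23 were analysed here and all 23 were tested; 0 passed in edgeR for medium or platform. At an unadjusted p under 0.05 there was 1 for medium and 0 for platform in edgeR, and likewise 1 and 0 in DESeq2, against 12.1% and 6.95% of all genes in edgeR and 10.2% and 6.02% in DESeq2. By the size rule 2 were higher and 4 lower in differentiation medium on PUCL@CNT1, where 16.5% and 14.5% of all genes were. On PUCL 1 was higher and 9 lower, where 16.1% and 15.3% of all genes were. The median log2 ratio was 0.08 and -0.66 in those pairs, beside 0.03 and -0.01 over all genes. Ptbp3, the third PTB paralog, was the 1 gene of the list past the size rule in the same direction on both platforms. It had 0 counts on PUCL@CNT1 and 17 on PUCL in differentiation medium, against 31 and 82 in maintenance medium (edgeR adjusted p 0.686). Among all tested genes, 3.53% were lower and 4.35% higher in differentiation medium on both platforms by the rule. Ptbp3 was also lower on PUCL@CNT1 than on PUCL by the rule in both media, as were 3.17% of all genes. Its mean was under 100 counts. In that range 48.7% of genes were past the medium rule on PUCL@CNT1 and 50.6% on PUCL, in either direction.

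Among the listed regulators, the Rbfox genes, splicing factors that bind UGCAUG, were picked out after their values were seen. Rbfox1 had 217 counts on PUCL@CNT1 and 39 on PUCL in differentiation medium, against 38 and 45 in maintenance medium. The 1 high library was thus PUCL@CNT1 in differentiation medium. Likeness of this pattern to that of any member was not tested, as 4 libraries are too few for it. Rbfox2 had 203 and 28 counts in differentiation medium and 80 and 182 in maintenance medium, and Rbfox3, which encodes NeuN, had 0 and 0 against 1 and 29 (PUCL@CNT1, then PUCL). Their edgeR adjusted p for medium was 0.874, 0.941 and 0.923 in that order of names.

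Of the PTB partners Matr3, Raver1 and Raver2, nuclear proteins that act with Ptbp1, 0 of 3 passed for medium or platform in edgeR. For medium 1 had an unadjusted p under 0.05 in edgeR, against 12.1% of all genes, and 1 in DESeq2, against 10.2%. By the size rule 0 differed between media on PUCL@CNT1, where 31% of all genes did. On PUCL 2 were lower in differentiation medium, where 15.3% of all genes were. Between platforms 1 was higher on PUCL@CNT1 in differentiation medium, where 15.2% of all genes were. Matr3 had 373 counts on PUCL@CNT1 and 292 on PUCL in differentiation medium, against 604 and 831 in maintenance medium. Both differentiation libraries were below both maintenance libraries, and the fitted log2 difference of -1.13 (SE 0.350) had an adjusted p of 0.0564 in edgeR; it was past the threshold in 2 of 11 alternative fits, which spanned 0.0472 to 0.774. Raver2 had 137 and 33 counts in differentiation medium and 159 and 159 in maintenance medium (fitted -1.25, SE 0.790, adjusted p 0.618).

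The last group was 28 mRNAs that the members are known to bind or regulate, all of which were tested. For medium, 2 rose and 2 fell in edgeR, and 6 had an unadjusted p under 0.05 (7 in DESeq2), where 12.1% of all genes did in edgeR and 10.2% in DESeq2. The fitted median was 0.01 on the log2 scale, beside 0.00 over all genes, where 1.8% rose and 1.02% fell. By the size rule 6 were higher and 2 lower in differentiation medium on PUCL@CNT1, where 16.5% and 14.5% of all genes were, and 4 were higher and 2 lower on PUCL, where 16.1% and 15.3% were. Dlg4, which encodes the postsynaptic scaffold PSD-95 and in mouse carries an exon repressed by Ptbp1 and Ptbp2, fell, with 3926 counts on PUCL@CNT1 and 3996 on PUCL in differentiation medium against 5282 and 7446 in maintenance medium (fitted log2 -0.69, SE 0.176, adjusted p 0.0116, past the threshold in 5 of 11 alternative fits). Vegfa, the vessel growth factor gene bound by HuR, fell as well, with 75 and 176 counts in differentiation medium and 343 and 445 in maintenance medium (fitted -1.79, adjusted p 0.0227, 4 of 11).

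The genes of that group that rose in differentiation medium were Marcks and Cdkn1a. Marcks, a gene of a membrane-bound actin regulator whose mRNA Hu proteins bind, had 5811 counts on PUCL@CNT1 and 6665 on PUCL in differentiation medium, against 3435 and 4575 in maintenance medium (fitted log2 0.62, SE 0.175, edgeR adjusted p 0.0294, 4 of 11 alternative fits). Cdkn1a encodes the cell cycle inhibitor p21, and its mRNA is bound by HuR and repressed by Musashi. It had 4664 and 1810 counts in differentiation medium and 2174 and 1422 in maintenance medium (fitted 0.70, adjusted p 0.0498, 2 of 11). With the PUCL@CNT1 differentiation library left out, and the platform term with it, the fitted value of Cdkn1a was -0.015 (edgeR adjusted p 0.992). Of the 4 calls of the group, 2 were made without the PUCL differentiation library (Vegfa at 0.0164 and Cdkn1a at 0.00280 in edgeR), and 0 without any 1 of the other 3 libraries or without the platform term alone. Cdkn1a was also the 1 gene of the group past the platform test: on PUCL@CNT1 it rose by a fitted log2 of 1.01 over PUCL (SE 0.212, edgeR adjusted p 0.00560, 5 of 11 alternative fits). In no fit that left out a library did that call pass, and without the PUCL@CNT1 differentiation library the fitted value was 0.50.

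Src, a kinase gene with a neuronal exon under PTB control, and Bdnf, the neurotrophin gene whose mRNA HuD stabilises, were past the size rule in the same direction on both platforms but not in the test. Src had 96 counts on PUCL@CNT1 and 30 on PUCL in differentiation medium, against 32 and 0 in maintenance medium (edgeR adjusted p 0.703). Bdnf had 23 and 31 against 1 and 0 (edgeR adjusted p 0.854). Both genes had means under 100 counts and were at 0 in the PUCL maintenance library. By the rule 4.35% of all genes were higher in differentiation medium on both platforms. Src was also higher on PUCL@CNT1 than on PUCL by the rule in both media, as were 2.52% of all genes. Numb, the Notch inhibitor gene whose translation Musashi represses, was chosen after its values were seen: it had 79 counts on PUCL@CNT1 in differentiation medium and 0 in the other 3 libraries. Ache, of the same group, had 53 counts there and likewise 0 in the other 3. Of tested genes with means under 100 counts, 51.7% had 0 in at least 1 library.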

How the data were processed

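The deposited files held raw counts per gene symbol, as the authors made them with no normalization, per the file headers and the whole-number values. The rn6 build, Bowtie2 and bedtools are named per the submitters' processing notes; roles, versions, annotation, strand setting and duplicate handling are not given in the sources used here, so overlapping genes cannot be told apart. Rows of 1 symbol were summed (17048 entries, 16881 symbols). Testing took the 10516 genes that reached 10 counts in some library (6365 removed). edgeR 4.0.16 (R 4.3.3) was run with TMM scaling and a quasi-likelihood F test, platform and medium as additive terms over the 4 libraries (1 residual and 87.2 prior degrees of freedom), Benjamini-Hochberg over all genes. SE is the fitted difference divided by the root of F. Pair ratios used a prior count of 0.5, exact 95% binomial intervals and a floor of 3 counts; reads carry no molecular identifiers, so these cover counting error only. Nothing in the labels says that libraries came from separate cultures. Alternatives used DESeq2 1.42.0, limma 3.58.1, other scalings and filters. All 10 members are named; of the lists, genes past the edgeR threshold, then up to 4 past the size rule in both pairs, otherwise up to 2 with the lowest unadjusted p. Members and lists were chosen with earlier results of these data known.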

Additional observations from a re-analysis of the deposited data

Results flagged for a closer look

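Elavl2, Elavl3 and Celf1 were picked out because the difference between media ran one way on PUCL@CNT1 and the opposite way on PUCL. The log2 change of the platform ratio, differentiation over maintenance medium, was -3.25 for Elavl2, -3.38 for Celf1 and -11.98 for Elavl3, the last set by the 0.5 added to 2 counts of 0. With 1 library per group the difference was not tested, and over all genes 29.5% were past the same size rule. In the range under 100 counts, where Celf1 and Elavl3 lie, 40.2% were, and between 100 and 500 counts, where Elavl2 lies, 31.3%.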

How the results depend on the processing

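No paired analysis was possible because the groups share fewer than 2 replicate numbers; the platform term of the medium fit compares media within each platform and is no replicate block. No member passed the medium test in any of the 11 alternative fits. In the platform test 1 member passed with the PUCL@CNT1 differentiation library and the medium term left out (Celf2, adjusted p 0.0133, range over 9 alternatives 0.0133 to 0.998), and the count of members ran between 0 and 1 over the fits without 1 library. In such fits a lone library is assumed to vary like the others. Celf2 also entered the tests only through the PUCL@CNT1 libraries, so its pass is no separate support for a platform difference. Of the listed mRNAs bound by the members, the 4 past the medium threshold became 2 under total counts, 0 with a mean of 50 or more counts, 2 in DESeq2, 0 without the platform term and 0 to 2 without 1 library. The 1 past the platform threshold became 0 with a mean of 50 or more counts, 2 in limma-voom, 0 without the medium term and 0 to 0 without 1 library. The PTB partners went to 1 past the medium threshold under total counts and in limma-voom. Over all genes the 296 medium calls became 64 with a mean of 50 or more counts, 170 in DESeq2, 176 without the platform term and 16 to 203 without 1 library; without the PUCL@CNT1 maintenance library there were 16 and without the PUCL maintenance library 28. The 48 platform calls became 18 under relative log expression (RLE) size factors, 27 under total counts, 25 without a filter, 0 with a mean of 50 or more counts, 87 in limma-voom, 0 without the medium term and 0 to 26 without 1 library. The cause was not tested. Counts of members past the size rule were the same under all 4 alternatives tried for the pairs, and the Elavl and Ptbp ratios moved by less than their counting intervals with 2 in place of 0.5 added. Some fitted log2 differences turned sign with 1 library left out. For medium they lay in the ranges -2.15 to 0.66 for Celf1, -9.19 to 7.35 for Celf2, -0.14 to 0.089 for Elavl1, -1.87 to 0.21 for Elavl2, -7.87 to 6.04 for Elavl3, -0.92 to 1.98 for Ptbp2, -0.10 to 2.34 for Rbfox1, -2.22 to 0.60 for Rbfox2 and -0.015 to 1.32 for Cdkn1a. For platform they lay in the ranges -2.39 to 0.041 for Celf1, -0.25 to 8.80 for Celf4, -1.51 to 0.90 for Elavl2, -6.04 to 7.87 for Elavl3, -1.02 to 0.21 for Elavl4 and -0.37 to 0.028 for Ptbp1. The large values belong to genes with libraries at 0. The platform difference of Elavl2 was also above 0 in limma-voom (0.24) and without the medium term (0.14). The medium difference of Elavl4 and of Ptbp1 stayed below 0 in all 11 alternatives, and the platform difference of Ptbp2 in all 10 that tested it. For Elavl4 and Ptbp1 both differentiation libraries lay below both maintenance libraries, and for Ptbp2 both PUCL@CNT1 libraries lay below both PUCL libraries. These signs were thus largely set in advance.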
